A study of Homo sapiens with 4 samples.

Results

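The genes of DNA replication and mitosis were followed by RNA-seq in 293T cells that had received a control RNA or a mimic of miR-1, miR-122, or miR-124. The 54 genes were chosen by their role in the cell cycle. The rule used no values, but it was set with earlier results of these data known. Their symbols were matched to the Ensembl identifiers of the 58243 genes in the data. They fall into 21 replication genes, 7 cyclins and partners of the G1 and S phases, 24 mitosis genes, and 2 transcription factors. 293T is an established human embryonic kidney cell line, so all 4 groups share 1 genetic background. A mimic is a synthetic RNA duplex with a strand of the sequence of the mature miRNA, taken up here by transient transfection. RNA was taken 48 h after transfection according to the sample labels, whereas the study's methods give a shorter time. There was 1 library for each of the 4 conditions (control RNA and the 3 mimics). No difference between conditions therefore has a replicate check, and no p-value is given. In bulk RNA from a culture, fewer cells in a phase of the cycle and less RNA per cell in that phase cannot be told apart.

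The cell cycle copies the genome in S phase and shares it out in mitosis. Before S phase, the origin recognition complex, CDC6, and CDT1 load the MCM helicase on origins, and CDC45 and the GINS proteins then switch it on so that polymerases can follow. In mitosis, CDK1 with its cyclins drives entry, Aurora and Polo kinases and kinesins build the spindle, and the spindle checkpoint holds the anaphase-promoting complex back until chromosomes are attached. Transcription of both sets is periodic, with E2F factors acting at many replication genes and the CHR element, bound by complexes that include MYBL2 and FOXM1, at many mitosis genes. A miRNA pairs through its seed, bases 2 to 8, with sites in 3′ UTRs and lowers the mRNA, the protein, or both. miR-1 is a muscle miRNA, miR-122 a liver miRNA, and miR-124 a neuronal miRNA, and all are abundant in differentiated cells that rarely divide.

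The mature miRNAs are printed because their seeds define the sites searched for below, and the capitals mark the seed. miR-1 lies on the minus strand of chromosome 18 at chr18:21829015-21829036 and miR-122 on the plus strand at chr18:58451088-58451109 (RefSeq, GRCh38.p14).
miR-1: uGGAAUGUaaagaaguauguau
miR-122: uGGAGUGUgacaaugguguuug
A seed site was counted in the longest annotated 3′ UTR as ACATTCC or CATTCCA for miR-1 and as ACACTCC or CACTCCA for miR-122, and a match to both words together is an 8mer. No site search was made for miR-124.

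Of the 54 genes, 7 held a miR-1 site. The 3′ UTR sites of the 5 carriers that were lower with miR-1 by the rule given below are shown, with the site in capitals, 30 bases each, 5′ to 3′ on the strand of the gene (GRCh38).
AURKA: gttgtactccaggttgaattcACATTCCct
CCND1: ttcttcttcatattctaaaacCATTCCAtt
CDC25C: taACATTCCAgccactggctgctaacaagt
MKI67: agtgaatttccatgtaataggACATTCCca
POLA1: ctgagcaggtgttttacactcACATTCCct
The AURKA stretch lies at chr20:56370323-56370352 on the minus strand. The CCND1 stretch lies at chr11:69652261-69652290 on the plus strand. The CDC25C stretch, at chr5:138285662-138285691 on the minus strand, holds the 1 miR-1 8mer among these genes, 3 bases after the stop codon. The MKI67 stretch lies at chr10:128097142-128097171 on the minus strand and the POLA1 stretch at chrX:24996562-24996591 on the plus strand. The other carriers were CDK2 with 1 site and CCND2 with 3.

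A miR-122 site was found in 9 of the 54 genes. KIF11 was the 1 gene among them with more than 1 such site, and its 2 8mers are shown because this gene had the lowest ratio with miR-122. They lie on the plus strand of chromosome 10, in the order chr10:92654118-92654147 and chr10:92654850-92654879.
KIF11, first 8mer: tgagccaaaggtacaccactACACTCCAgc
KIF11, second 8mer: tgactaatggctctgtgcccACACTCCAag
Among the 11266 genes with a 3′ UTR that were compared, 27 had at least 2 miR-122 8mers, and their median log2 ratio with miR-122 was −0.25.

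All 54 genes were measured in every library. The values are FPKM, fragments per kilobase of gene length, scaled by the reads of the library, in which the deposited length of a gene was close to its whole span with introns, so each gene is compared with itself across libraries and not with other genes. The number of reads by which values had been divided was 6624306 in the control library, and under miR-1 it was 9452232, under miR-122 5887055, and under miR-124 6465436. The read number of each gene was recovered from the values, and these numbers added up to 107.2 to 107.4% of the divisors. For CDT1, GINS1, CCND2, and KIF11 they may be off by a whole factor, which would change the width of their intervals and not the ratios. For RRM2 the read numbers of all 4 libraries are multiples of a common whole number, and they are probably too high by that factor. Its intervals are then too narrow and its RPM too high, whereas its FPKM ratios do not change. CCNE1 had the fewest recovered reads of these genes, 74 in a library. The largest number was the 11853 of RRM2 with miR-1, probably too high, and the next was 5732 for MYBL2 with miR-1. Together the genes took 9571 RPM, reads scaled to a common library size, in the control library, 9800 under miR-1, 9784 under miR-122, and 9272 under miR-124. These sums hold the RRM2 reads and are probably too high for that reason, so they are not compared between libraries. Of the markers listed for 293T, VIM and KRT18 were at 58.0 to 68.3 and 97.5 to 115 FPKM, and NEFL was at 27.7 to 33.6 FPKM. The others were low, with NEFM at 0.864 to 1.06 FPKM, LHX1 at 0.865 to 1.23, and PAX2 at 0.0192 to 0.0492. The hepatocyte, leukocyte, and heart muscle markers other than TTR had at most 5 reads in a library. TTR was above 0 only with miR-1, at 0.0580 FPKM, and a single value does not fix its read number. Of the fibroblast markers, COL1A1 was at 2.98 to 3.61 FPKM and DCN had at most 1 read.

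Levels with each mimic were divided by the control level, and the interval given is the exact 95% counting interval of that ratio, which compares libraries and not conditions. A gene was called lower at 20% or more below control and higher at 25% or more above it, which is the same fold in both directions. With miR-1, 7 of the 54 genes were lower, against 18.6% of the 12786 genes compared, and 3 were higher, against 7.63%. The 7 were AURKA, CCND1, CDC25C, MKI67, POLA1, CCNB2, and BUB1B, and the 3 were CCNE1, RRM2, and BIRC5. With miR-122, 3 were lower, against 12.5% of all genes, and 2 were higher, against 8.08%. KIF11, BUB1B, and CCNE1 were the genes lower, and CCND2 and CDT1 the genes higher. With miR-124, 5 were lower, against 16.6% of all genes, and 2 were higher, against 10.4%. BUB1B, TTK, POLA1, KIF20A, and BUB1 were lower here, and CDT1 and POLD1 higher. As shares of the 54, the genes lower were 13.0%, 5.56%, and 9.26% and the genes higher 5.56%, 3.70%, and 3.70%, each below the share of all genes. After the adjustment given below, the share lower was instead above that of all genes with miR-1 and miR-124. Read numbers, on which such shares also depend, were not matched between the 54 and all genes. The median log2 ratio of the 54 genes was −0.0026 under miR-1, 0.01 under miR-122, and −0.07 under miR-124, beside −0.05, −0.02, and −0.05 for all genes compared. Set against the average of the remaining mimics in place of control, only AURKA of the 7 genes lower with miR-1 was still lower, and none of the 5 genes lower with miR-124 was. CCNE1 and RRM2 were still higher with miR-1, KIF11 and CCNE1 lower and CCND2 higher with miR-122, and POLD1 higher with miR-124.

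The intervals lay off 1 for more genes than were called. Under miR-1, 17 of the 54 (31.5%) lay below 1 and 15 (27.8%) above it, against 25% and 15.8% of all genes compared. Under miR-122, 13 (24.1%) lay below and 12 (22.2%) above, against 16.8% and 13.5%. Under miR-124, 20 (37.0%) lay below and 10 (18.5%) above, against 22.2% and 16.7%. Intervals are narrower for genes with more reads.

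**Figure D1:**
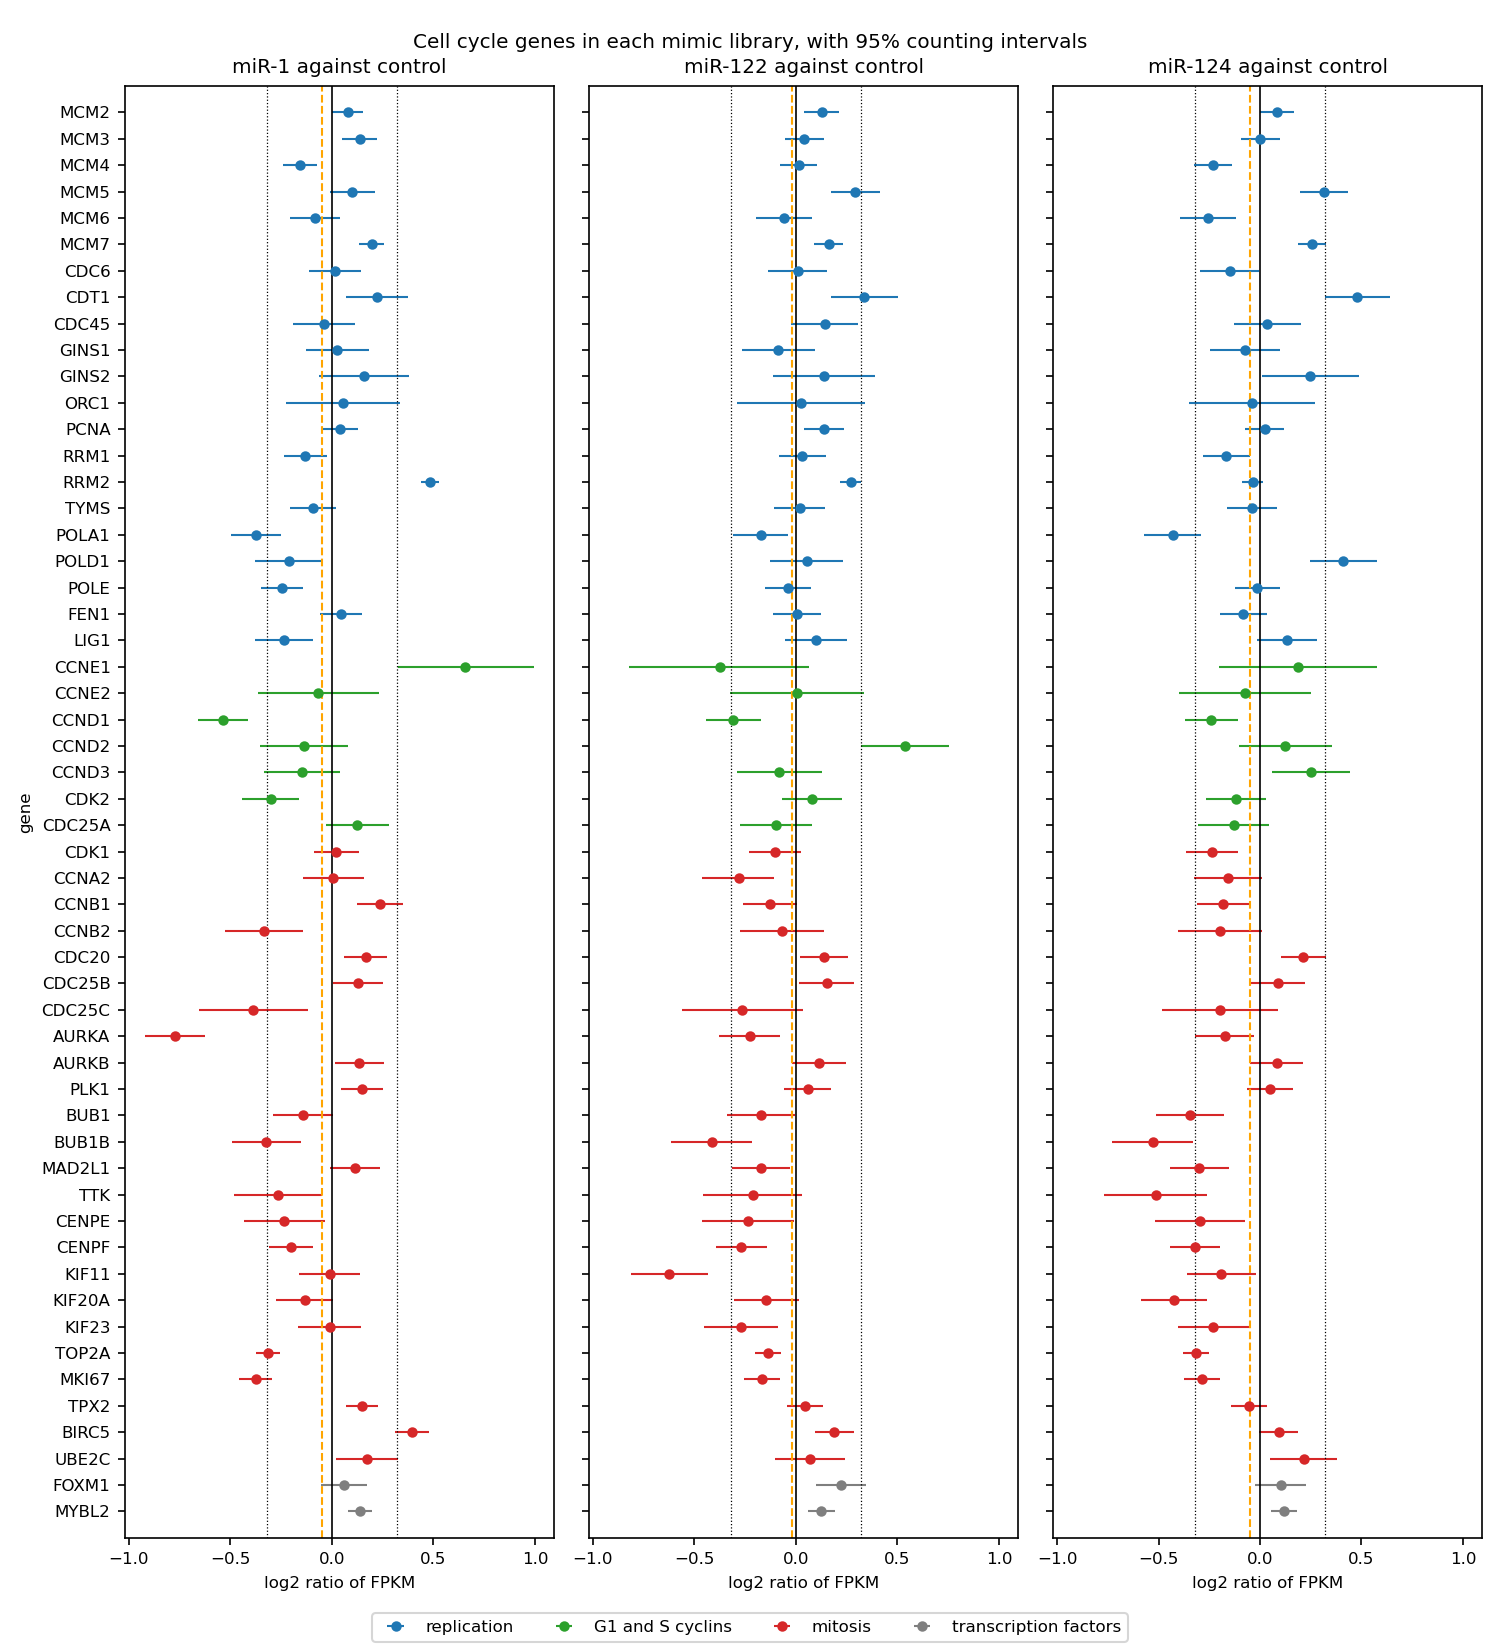
Log2 ratio of FPKM in the mimic library to the control library (horizontal axis) for the 54 genes (rows, colored by class), with bars for 95% counting intervals, dotted lines at the thresholds for a call, and a dashed orange line at the median of all genes compared. AURKA is farthest to the left with miR-1 at −0.77 and KIF11 with miR-122 at −0.62, and the mitosis genes lie mostly left of 0 with miR-124. The intervals of RRM2 are probably too narrow.

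The medians of the replication and mitosis genes lay farther from each other with miR-122 and miR-124 than with miR-1. Replication genes had a median log2 ratio of 0.03 under miR-1, 0.04 under miR-122, and −0.01 under miR-124. Mitosis genes had −0.01, −0.16, and −0.20. Of the 24 mitosis genes, 13 were below control under miR-1, 17 under miR-122, and 18 under miR-124. These are 54.2%, 70.8%, and 75% of the mitosis genes, against 57%, 53.6%, and 56.4% of all genes compared. Their intervals lay below 1 for 9, 11, and 14 (37.5%, 45.8%, and 58.3%), against 25%, 16.8%, and 22.2% of all genes, and above 1 for 8, 3, and 2 (33.3%, 12.5%, and 8.33%), against 15.8%, 13.5%, and 16.7%. Of the 21 replication genes, intervals lay below 1 for 6, 1, and 5 (28.6%, 4.76%, and 23.8%) and above 1 for 5, 6, and 6 (23.8%, 28.6%, and 28.6%), beside the same shares of all genes. Summed over the mitosis genes, the control library had 3901 RPM and the mimic libraries 3776, 3685, and 3511 in the order used above. Over the replication genes, the sums were 4443 RPM in the control library and 4802, 4813, and 4501 in the mimic libraries. RRM2 alone took 898 RPM in the control library and 1254, 1082, and 876 in the mimic libraries. These RRM2 numbers are probably too high by a whole factor, as said above. The replication sums hold them, so differences between those sums are not read as a result. The same control library enters all 3 ratios, so they are not independent of each other. Set against the average of the remaining mimics in place of control, the median of the mitosis genes was 0.0020 with miR-122 and −0.07 with miR-124. With miR-1 that median lay above 0, between CENPF and PLK1, each at 1.07 times the average of the remaining mimics.

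Of the 9 licensing genes, which load the helicase, CDT1 alone was called, higher with miR-122 and miR-124. MCM7, a helicase subunit, was at 54.6 FPKM in the control library, at 62.5 with miR-1, at 61.1 with miR-122, and at 65.2 with miR-124. MCM5, another subunit, was at 6.26 FPKM with control RNA and at 6.71, 7.67, and 7.79 with the mimics in the same order, and its ratio was 1.22 (1.13 to 1.33) with miR-122 and 1.24 (1.15 to 1.35) with miR-124. Both were above control in every mimic library. MCM4 and MCM6 lay on the other side with miR-124, at 0.851 (0.797 to 0.909) and 0.838 (0.761 to 0.922) times control, so the subunits of the hexamer lay on both sides of control there. MCM2 and MCM3 had ratios from 1.00 to 1.1 over both genes and the 3 mimics.

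CDT1, which brings the helicase to the origin, was the licensing gene with the widest differences. Its level stood at 14.2 FPKM with control RNA, at 16.6 with miR-1, at 18.0 with miR-122, and at 19.9 with miR-124. The ratios were 1.17 (1.05 to 1.30), 1.26 (1.13 to 1.42), and 1.39 (1.2503 to 1.56), all with intervals above 1. Its partner CDC6 was at 1.01, 1.01, and 0.902 times control, and ORC1, the largest subunit of the origin recognition complex, at 1.04, 1.02, and 0.973 with intervals that all held 1. CDC45, GINS1, and GINS2, which activate the helicase, had ratios from 0.942 to 1.19, and the interval lay off 1 only for GINS2 with miR-124 (1.01 to 1.40).

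Among genes of DNA synthesis, POLA1, the catalytic subunit of the polymerase that lays down primers, was the lowest. It was at 0.504 FPKM with control RNA, at 0.389 with miR-1, at 0.446 with miR-122, and at 0.374 with miR-124. Its ratios in that order were 0.772 (0.709 to 0.842), 0.886 (0.806 to 0.973), and 0.742 (0.674 to 0.817), below control in each library. POLD1, the catalytic subunit of the lagging strand polymerase, lay on both sides of control. Its values were 2.39, 2.06, 2.48, and 3.18 FPKM in the same order of libraries, with ratios of 0.863 (0.769 to 0.969) for miR-1 and 1.33 (1.19 to 1.49) for miR-124. POLE, the leading strand polymerase, and LIG1, the ligase of Okazaki fragments, were at 0.843 (0.784 to 0.907) and 0.849 (0.769 to 0.938) times control with miR-1 and had intervals holding 1 with the other mimics. PCNA, the sliding clamp, ranged from 1.02 to 1.1 times control and FEN1, the flap nuclease, from 0.944 to 1.03. The median log2 ratio of the 6 synthesis genes was −0.22 under miR-1, 0.03 under miR-122, and 0.00 under miR-124.

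The nucleotide supply genes parted at RRM2. RRM2, the small subunit of ribonucleotide reductase, was at 9.31 FPKM with control RNA, at 13.0 with miR-1, at 11.2 with miR-122, and at 9.07 with miR-124. With miR-1 its ratio was 1.40 (1.35 to 1.44), above that of 97.7% of all genes compared, and with miR-122 it was 1.21 (1.16 to 1.249). Both RRM2 intervals are probably too narrow, because its recovered reads are probably too high by a whole factor. RRM1, the large subunit of the same enzyme, was instead at 0.913 (0.849 to 0.982) with miR-1 and 1.02 (0.945 to 1.11) with miR-122. TYMS, which makes thymidylate, had ratios of 0.938, 1.01, and 0.973, but 39.9% of its exon bases are shared with ENOSF1 on the opposite strand. Whether counting used the strand is not given in the sources used here, and for CCNE2 and INTS8 this share was 37.0%, for FOXM1 and ITFG2 15.9%, for CDK2 and an antisense gene without a symbol 14.5%, for PLK1 and another such gene 11.6%, for CCND1 and LTO1 10.4%, for CCNA2 and EXOSC9 9.24%, and for CDC25C and FAM53C 8.80%.

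The cyclins of G1 and S phase differed in direction from gene to gene. CCND1, cyclin D1, was at 12.2 FPKM with control RNA, at 8.38 with miR-1, at 9.82 with miR-122, and at 10.3 with miR-124. Its ratios were 0.689 (0.633 to 0.751), 0.807 (0.735 to 0.886), and 0.847 (0.774 to 0.926), so that every mimic library was below control and miR-1 the lowest. CCND2, cyclin D2, was at 1.49, 1.35, 2.16, and 1.62 FPKM in that order. It was 1.45 times control with miR-122 (1.248 to 1.69), above 98.0% of all genes compared, with intervals that held 1 for the other mimics. CCND3, cyclin D3, had an interval off 1 only with miR-124, at 1.19 (1.04 to 1.36).

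CCNE1, cyclin E1, which activates CDK2 at the start of S phase, was at 1.31 FPKM with control RNA, at 2.07 with miR-1, at 1.01 with miR-122, and at 1.5 with miR-124. Its ratio of 1.58 (1.252 to 2.0) with miR-1 was the highest of the 54 genes in any mimic library. With miR-122 it was 0.771, but its interval of 0.566 to 1.05 held 1. Its reads were few, 108 in the control library and 74 with miR-122. CCNE2, cyclin E2, was at 0.954, 1.00, and 0.951 times control. CDK2 had an interval below 1 only with miR-1, at 0.811 (0.736 to 0.894), and CDC25A, the phosphatase that activates it, had none off 1.

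**Figure D2:**
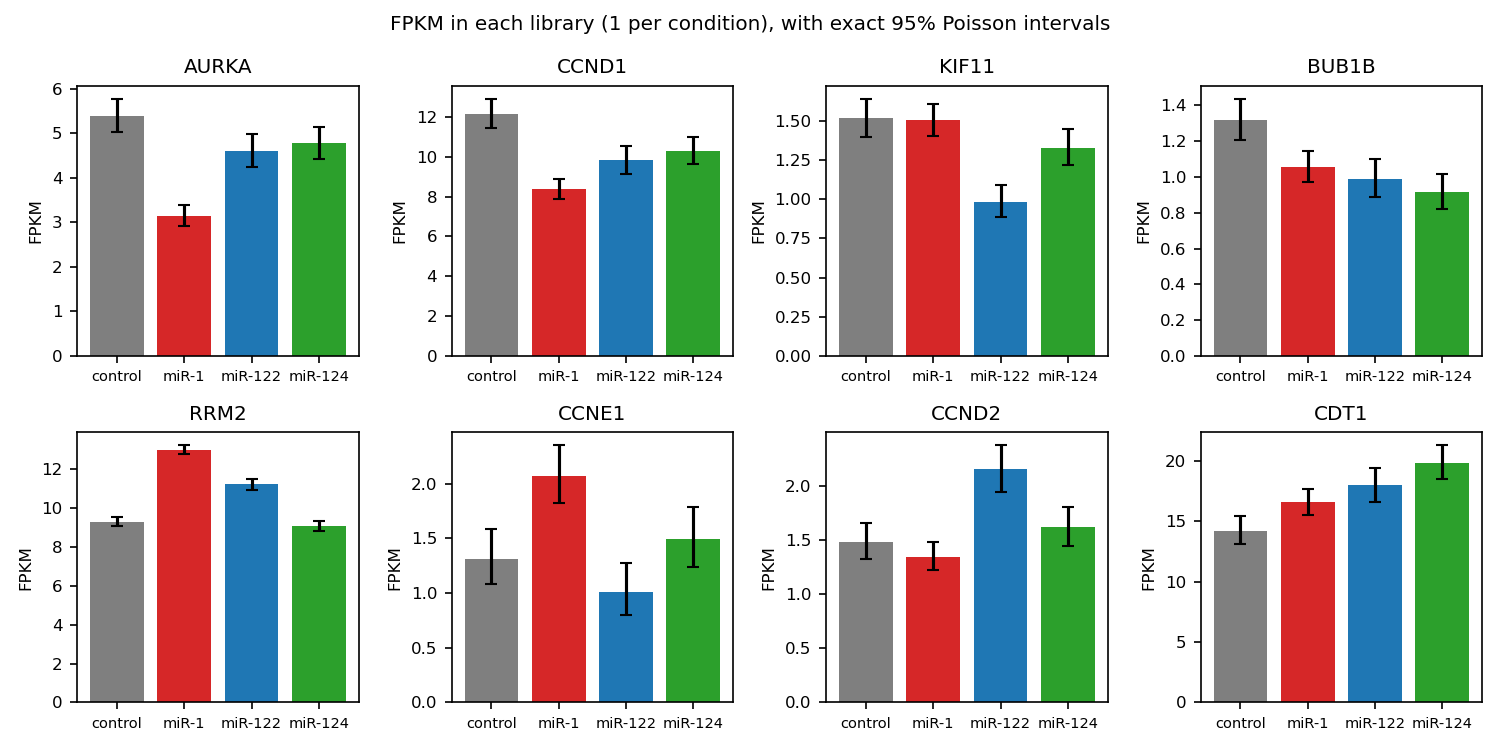
FPKM (vertical axis, from 0) of 8 genes in the 4 libraries, 1 bar per library, with exact 95% Poisson intervals that cover counting error only. AURKA and CCND1 are lowest under miR-1, KIF11 under miR-122, and BUB1B under miR-124, whereas RRM2 and CCNE1 are highest under miR-1, CCND2 under miR-122, and CDT1 under miR-124. The intervals of RRM2 are probably too narrow.

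Among genes of mitotic entry, AURKA was apart from the rest. AURKA (ENSG00000087586), the kinase that matures centrosomes and helps activate PLK1, was at 5.39 FPKM with control RNA, at 3.15 with miR-1, at 4.60 with miR-122, and at 4.78 with miR-124. Its ratio with miR-1 was 0.585 (0.527 to 0.648), the lowest of the 54 genes in any mimic library, and only 1.78% of all genes compared were lower. With miR-122 it was 0.854 (0.768 to 0.948) and with miR-124 0.886 (0.800 to 0.981). Its miR-1 level was 0.672 times the mean of the other mimics. AURKB, the related kinase of the chromosomal passenger complex, was not lower in any mimic library, with ratios of 1.1, 1.08, and 1.06. TPX2, the spindle protein that activates AURKA, was at 1.11, 1.03, and 0.964 times control, and PLK1 at 1.11, 1.04, and 1.03.

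CDC25C, a phosphatase that activates CDK1, was at 0.634 FPKM with control RNA, at 0.484 with miR-1, at 0.528 with miR-122, and at 0.554 with miR-124. Its miR-1 ratio was 0.764 (0.634 to 0.920), and with the other mimics its interval held 1. CDC25B, its paralog, had ratios from 1.07 to 1.11, all above 1. The cyclins of CDK1 differed from each other with miR-1. CCNB2, cyclin B2, was at 0.793 (0.695 to 0.906) and CCNB1, cyclin B1, at 1.18 (1.09 to 1.27). CCNA2, cyclin A2, was at 1.00 under miR-1, 0.822 (0.727 to 0.929) under miR-122, and 0.896 under miR-124. CDK1 itself was at 1.02, 0.932, and 0.849, with the interval off 1 only with miR-124 (0.777 to 0.928).

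The kinesins and spindle proteins were led by KIF11 (ENSG00000138160), the motor that pushes spindle poles apart. KIF11 was at 1.52 FPKM with control RNA, at 1.5 with miR-1, at 0.985 with miR-122, and at 1.33 with miR-124. Its ratio with miR-122 was 0.649 (0.569 to 0.740), and 1.95% of all genes compared were lower. The miR-1 library stood at 0.992 (0.894 to 1.1) and miR-124 at 0.877 (0.780 to 0.986), and the miR-122 level was 0.695 times the mean of the other mimics. KIF20A, a kinesin of cytokinesis, was lower with miR-124 at 0.746 (0.666 to 0.834), and KIF23, its neighbor in the central spindle, was at 0.829 (0.730 to 0.940) with miR-122 and 0.853 (0.755 to 0.964) with miR-124. CENPE, a kinetochore motor, and CENPF, a kinetochore protein, had intervals below 1 in all 3 mimic libraries, with ratios from 0.800 to 0.870 over both genes, the lowest just short of a call.

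BIRC5, survivin, the passenger complex subunit, was higher with miR-1. It was at 23.0 FPKM with control RNA, at 30.3 with miR-1, at 26.3 with miR-122, and at 24.6 with miR-124, and its ratio with miR-1 was 1.31 (1.24 to 1.39). The chromosome genes lay on the other side. TOP2A, the topoisomerase that untangles sister chromatids, was at 0.804 (0.772 to 0.837), 0.909 (0.869 to 0.949), and 0.804 (0.769 to 0.840) times control, just short of a call for miR-1 and miR-124. MKI67, the Ki-67 antigen that coats mitotic chromosomes, was at 12 FPKM with control RNA, at 9.25 with miR-1, at 10.7 with miR-122, and at 9.84 with miR-124. Its ratio was 0.771 (0.729 to 0.815) with miR-1, and its interval was below 1 with each mimic.

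Of the 6 genes of the spindle checkpoint and its target complex, 4 had intervals below 1 with miR-124 and 2 above it. BUB1B, the checkpoint protein BubR1, was at 1.32 FPKM with control RNA, at 1.05 with miR-1, at 0.989 with miR-122, and at 0.913 with miR-124. It was the 1 gene of the 54 called in the same direction with every mimic, at 0.800 (0.710 to 0.901), 0.750 (0.653 to 0.860), and 0.693 (0.604 to 0.794). Since the control library is common to these ratios, the mimics were also set against each other, and the miR-1 level was 1.11, the miR-122 level 1.01, and the miR-124 level 0.894 times the mean of the other mimic libraries. TTK, the kinase Mps1 that starts checkpoint signaling, was at 0.831 (0.715 to 0.967), 0.863 (0.728 to 1.02), and 0.700 (0.587 to 0.834). BUB1, a kinetochore kinase of the checkpoint, was at 0.787 (0.700 to 0.884) with miR-124, and MAD2L1, the inhibitor of CDC20, at 0.813 (0.736 to 0.898). The targets of the checkpoint lay on the other side. CDC20, which activates the anaphase-promoting complex, was at 1.16 (1.07 to 1.255) with miR-124 and UBE2C, its ubiquitin-conjugating enzyme, at 1.16 (1.04 to 1.30). The median log2 ratio of these 6 genes was −0.32 with miR-124, −0.17 with miR-122, and −0.02 with miR-1.

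FOXM1 and MYBL2, the transcription factors of the late cell cycle, were not below control in any mimic library. FOXM1 was at 8.06, 8.39, 9.39, and 8.65 FPKM in the 4 libraries, control first, with the interval off 1 only for miR-122, at 1.17 (1.07 to 1.27). MYBL2 was at 1.1 (1.06 to 1.15), 1.09 (1.04 to 1.14), and 1.08 (1.04 to 1.14) times control.

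The genes with a miR-1 site were then set beside those without. All 7 carriers were below control with miR-1, against 74.2% of the 2809 genes with a miR-1 site that were compared. Of the 7, 6 had intervals below 1, against 42.3%, and 5 were called lower, against 32.2%. Their median log2 ratio was −0.38, beside −0.18 for all genes with a site. The 47 cell cycle genes without a site had a median of 0.03 and 2 lower genes, CCNB2 and BUB1B, beside −0.01 for all genes with a 3′ UTR and no site. AURKA with 1 site of 7 bases had the lowest ratio, and CCND2 with 3 sites had the highest of the carriers, at 0.908 (0.781 to 1.06), so the order against control did not follow the number of sites. The AURKA site lies in the longest annotated 3′ UTR but not in that of the canonical transcript, and the 6 carriers left with the latter had a median of −0.37. In the other mimic libraries, the medians of the 7 carriers were −0.17 with miR-122 and −0.20 with miR-124, also below those of the genes without a site, 0.01 and −0.04. Against the average of the other mimics in place of control, the miR-1 median of the carriers was −0.26 and that of the genes without a site 0.04. The order of the carriers changed with this reference. AURKA was still the lowest at 0.672, CCND2 came next at 0.715, and POLA1 was the highest at 0.949.

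The genes with a miR-122 site lay on both sides of control with miR-122. The 9 carriers (MCM4, CDC6, CDT1, GINS2, CDC25A, KIF11, MKI67, BIRC5, and FOXM1) had a median log2 ratio of 0.01, and the 45 genes without a site had 0.00. Only KIF11 was called lower, against 16.8% of the 2964 genes with a miR-122 site, and CDT1, with 1 site, was among the genes that were higher. All genes with a miR-122 site had a median of −0.07 and those without −0.01. Sites were held by 13.0% of the 54 genes for miR-1 and 16.7% for miR-122, beside 24.9% and 26.3% of all genes with a 3′ UTR, whose 3′ UTRs were longer, with a median of 1606 bases against 839 for the cell cycle genes.

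The promoters of these genes were searched for words that known regulators of the cell cycle bind, and the shares are given for the classes described above. RefSeq promoters, 250 bases before to 50 after the gene start, were matched for 42 of the 54 genes. On either strand, the E2F words TTTGGCGC, TTTGCCGC, TTTCGCGC, and TTTCCCGC were found in 13 of 19 replication genes (68.4%) and 1 of 19 mitosis genes (5.26%), beside 3.33% of 27305 promoters. The CHR words TTTGAA and TTCGAA were found in 2 of 19 replication genes (10.5%) and 12 of 19 mitosis genes (63.2%), beside 16.6% of all promoters. CCAAT was found in 13 and 15 of the 19 (68.4% and 78.9%), beside 35.7%, and no word lies within another. The stretches below, 30 bases each on the strand of the gene, show the word in capitals, in the letters of the gene's strand, for 3 replication and 4 mitosis genes.
CDT1: ccagggcgcccGCGGGAAAtttggcgggaa
PCNA: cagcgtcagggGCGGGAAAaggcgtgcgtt
POLA1: gtcatcacaggGCGCCAAAcgcgcgtccgc
KIF11: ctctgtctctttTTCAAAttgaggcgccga
BUB1B: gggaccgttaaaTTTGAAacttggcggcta
CCNB2: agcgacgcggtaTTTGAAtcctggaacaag
PLK1: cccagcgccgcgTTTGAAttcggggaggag
They lie at chr16:88803743-88803772 (plus strand), chr20:5126663-5126692 (minus), chrX:24693770-24693799 (plus), chr10:92593090-92593119 (plus), chr15:40161034-40161063 (plus), chr15:59105105-59105134 (plus), and chr16:23678848-23678877 (plus), in this order (GRCh38.p14). Genes with the same word had ratios on both sides of 1. With miR-124, CDT1 was at 1.39 and POLA1 at 0.742 times control, both with an E2F word, and BUB1B was at 0.693 and PLK1 at 1.03, both with a CHR word.

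The GC content of the 3′ UTR differed between the classes and varied with the ratios. Its median was 36.1% for mitosis genes, 44.3% for replication genes, and 42.7% for all genes compared. Across the 54 genes, Pearson's r between the log2 ratio and GC content was 0.12 under miR-1, 0.35 under miR-122, and 0.58 under miR-124, and across all genes with a 3′ UTR compared, 11250 or 11251, it was 0.24, 0.34, and 0.61. These are descriptions over genes that share 4 libraries. With trends in 3′ UTR length, gene span, read number, and this GC content fitted to all genes and subtracted, the median of the mitosis genes was −0.10 under miR-1, −0.13 under miR-122, and −0.15 under miR-124, and that of the replication genes was −0.11, 0.00, and −0.05. The median of all genes was kept in this step, and their adjusted medians were −0.06, −0.02, and −0.05. The adjusted medians of the 54 genes were −0.10, −0.04, and −0.10, below those of all genes with each mimic. So adjusted, 11, 3, and 5 of the 54 were lower, against 1598 of 11250, 1037 of 11251, and 960 of 11250 genes. This share was above that of all genes with miR-1 and miR-124 and below it with miR-122. AURKA with miR-1 was at −0.87 after this step, KIF11 with miR-122 at −0.53, and BUB1B with miR-124 at −0.41, whereas CDT1 and POLD1 with miR-124 came to 0.17 each.

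Other genes of the same processes were counted with the same rule. Of 43 further replication genes, 4 were lower and 2 higher under miR-1, 5 and 1 under miR-122, and 4 and 3 under miR-124. The shares lower were 9.30%, 11.6%, and 9.30%, against 18.6%, 12.5%, and 16.6% of all genes compared, and the shares higher 4.65%, 2.33%, and 6.98%, against 7.63%, 8.08%, and 10.4%. Their median log2 ratios were −0.02, −0.04, and −0.07. Of 42 further mitosis genes, 3 were lower and 3 higher under miR-1, 5 and 1 under miR-122, and 10 and 1 under miR-124. The shares lower were 7.14%, 11.9%, and 23.8% and the shares higher 7.14%, 2.38%, and 2.38%. Before the trends above were subtracted, only the share lower with miR-124 was above that of all genes. With those trends subtracted, 7, 2, and 1 of the 42 were lower, against 14.2%, 9.22%, and 8.53% of all genes so adjusted. The share lower was then below that of all genes with miR-122 and miR-124 and above it with miR-1. The unadjusted median log2 ratios of the 42 genes were −0.02, −0.05, and −0.13. The 10 mitosis genes lower with miR-124 included ANLN, the scaffold of the cytokinetic ring, at 0.708 times control, and SMC2, a condensin subunit, at 0.727. GTSE1, a spindle-associated protein, was lower with miR-1 (0.744) and miR-122 (0.775).

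Of 13 cell cycle inhibitors and G1 kinases, 2 were lower and 2 higher under miR-1, 3 and 1 under miR-122, and 4 and 2 under miR-124. The shares lower were 15.4%, 23.1%, and 30.8%, against 18.6%, 12.5%, and 16.6% of all genes, and the shares higher 15.4%, 7.69%, and 15.4%, against 7.63%, 8.08%, and 10.4%. CDKN1C, the inhibitor p57, was at 5.38 FPKM with control RNA, at 7.61 with miR-1, at 8.02 with miR-122, and at 10.1 with miR-124, with ratios of 1.42 (1.1 to 1.83), 1.49 (1.13 to 1.97), and 1.89 (1.46 to 2.45). RB1, the retinoblastoma protein that holds E2F factors back, was at 0.679 (0.615 to 0.749), 0.790 (0.708 to 0.880), and 0.772 (0.694 to 0.858), lower than control in all mimic libraries. It was at 0.346 FPKM with control RNA and at 0.235, 0.274, and 0.267 with the mimics. For RB1 as for CDKN1C, the control library is common to all these ratios. CDK6, the partner of the D cyclins, was at 0.955 (0.835 to 1.09), 0.732 (0.622 to 0.862), and 0.734 (0.626 to 0.860), whereas CDK4 was at 0.942, 1.09, and 1.07. CDKN1A, the inhibitor p21, was at 0.933, 0.863, and 1.05 times control.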

How the data were processed

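mRNA-seq libraries of 293T cells, 1 for each of 4 conditions, had been base-called with CASAVA 1.8 and aligned to GRCh38 with HISAT2 2.0.0 according to the submitters' processing notes. The values are FPKM, computed and deposited by the authors for each library and Ensembl identifier. The counting program and annotation are not given in the sources used here. Of 58243 genes, 57532 matched GENCODE release 44 (start to end of the gene as length), and whole reads were recovered for 99.1% of the 32010 above 0. The read divisors limit precision, and intervals cover counting error only. The cell cycle genes and all gene lists were chosen with earlier results of these data known. All 54 were named, by role.

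Genes above 0.004 FPKM in both libraries and with at least 200 recovered reads over the 4 libraries were compared by the ratio of FPKM without a pseudocount, with exact Clopper-Pearson intervals. No test was possible with 1 library per condition. Promoters and miRNAs came from RefSeq (GRCh38.p14). The sequence of 1 site is not reported here. Alternatives were pseudocounts of 1 and 0.1, another reference, centring, other filters and thresholds, an adjustment by cubic trends, and, chosen after seeing the data, sites in the canonical 3′ UTR. Steps were tested on simulated data whose gene lengths lay close to the annotated span. Such data could not show a read number that is off by a whole factor. Python 3.11.15, numpy 2.4.6, pandas 2.3.3, scipy 1.17.1, and matplotlib 3.10.9 were used.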

Additional observations from a re-analysis of the deposited data

How the results depend on the processing

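No paired analysis was possible because there was a single library per condition, and none could be left out. With a pseudocount of 1, 3 genes were lower under miR-1, 1 under miR-122, and 1 under miR-124, and 1 was higher under miR-122 and 1 under miR-124. At 1.5-fold, 1 gene was lower and 1 higher with miR-1, 1 lower and 0 higher with miR-122, and 0 lower and 0 higher with miR-124. Against the average of the remaining mimics in place of control, 4 were lower with miR-1, 1 of them (AURKA) among the 7 lower against control and 3 (CCND2, LIG1, and POLD1) not, and 5 were higher, 2 shared (CCNE1 and RRM2) and 3 not (CCNB1, KIF11, and MAD2L1). With miR-122, 2 were lower, both shared, and 1 higher, CCND2, shared. With miR-124, 1 was lower, RRM2, which was not among the 5, and 2 were higher, POLD1, shared, and CCND3. The median of the mitosis genes with miR-122 was then 0.0020, the log2 ratio of BUB1B was 0.15 under miR-1 and 0.0076 under miR-122, and that of CDT1 −0.020 with miR-122, each on the other side of 0 from its ratio to control. The median of the mitosis genes with miR-1 also lay above 0 by this reference and below 0 against control. Centred on all genes, 4 were lower with miR-1. After adjustment for the trends with 3′ UTR, span, and reads, 11 were lower with miR-1, 6 of them among the 7, and 0 higher with miR-124, and the replication genes had a median of −0.11 with miR-1. Of 11250 genes so adjusted, 1598 were lower with miR-1 and 461 higher with miR-124, and their miR-1 median was −0.06. The cause of these differences was not tested. The other counts among the 54 genes stayed within 1.5 times, and their other class and site medians moved by less than the typical counting interval, under the alternatives run. The lowest count, 74 reads for CCNE1 with miR-122, sets the widest intervals.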
